A study of Caenorhabditis elegans with 59 samples.

Results

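The cytosolic ribosomal protein (RP) genes of Caenorhabditis elegans were followed through the 59 libraries of a study of HSF-1 depletion in adult somatic tissue. Genes were taken by name: a WormBase symbol starting with rpl- (large, 60S subunit) or rps- (small, 40S subunit), listed in all 3 deposited expression tables, with the mitochondrial mrpl- and mrps- genes left out. This gave 77 genes, 46 rpl- and 31 rps-, of 9737 genes listed in all 3 tables and 15698 listed in at least 1. The annotation holds 78 such genes, and the remaining one, rpl-42, was listed for the sterile strains only. HSF-1 was removed with the auxin-inducible degron system, in which the plant F-box protein TIR1 marks a degron-tagged protein for destruction when auxin is present. In these strains TIR1 was expressed from the eft-3 promoter in the soma (ieSi57), so HSF-1 in germ cells was not the target.

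The fertile strains were JTL611, carrying hsf-1::aid::gfp with ieSi57 and unc-119(ed3), and its control CA1200, carrying ieSi57 and unc-119(ed3) without the degron. Both were grown at 20 °C for 51 h to young adults and then kept on auxin or on ethanol (mock) plates for 8 or 24 h. The sterile strains were JTL667, carrying glp-1(e2141), hsf-1::aid::gfp and ieSi57, and JTL670, carrying fem-3(q20), hsf-1::aid::gfp, ieSi57 and unc-119(ed3). Both were grown at 25 °C for 48 h to adults of day 1 and then kept on auxin or mock plates for 8, 24 or 48 h. At that temperature glp-1(e2141) animals lack germ cells, whereas fem-3(q20) animals keep a germline that makes sperm but no oocytes, and they are called glp-1 and fem-3 here. Each group had 3 libraries, except glp-1 auxin at 48 h with 2, and each condition held about 120 worms. A sterile strain without the degron was not analysed here, so auxin and HSF-1 loss cannot be told apart there.

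Ribosomal proteins surround the ribosomal RNA of both subunits, and most are needed in equal numbers because each ribosome carries a single copy of them. Their mRNAs are among the most abundant of growing cells, and the growing germline of an adult worm needs many ribosomes. Most RP genes of the worm are single copy, but a few have a numbered second copy. HSF-1 is the heat shock transcription factor that drives chaperone genes and, in unstressed worms, also genes of development and of longevity.

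All values are CPM, read counts scaled by library totals that the authors adjusted by normalisation within each table, and were deposited as log2. A change in CPM therefore need not equal the change in the share of reads. The tables were scaled separately, so tests were made within a table only. Library totals over listed genes ranged from 9131588 to 23867943 reads, and every RP gene except rpl-41.1 had at least 67 reads in each library. For 18 of the 59 libraries, all from sterile strains, the agent tag named the other treatment than the title. Groups followed the titles, and counts by the tag are given where they differ. In glp-1, replicate 1 of the 24 h mock group stood apart, with 26.7% of its reads on ribosomal RNA and 4340 listed genes at 0 reads. Replicate 2 of the 8 h auxin group had 0.745% on ribosomal RNA and the highest RP share of the sterile libraries. Germline markers were low in glp-1: the 11 early germline genes summed to 58.8 to 93.6 CPM in glp-1 and 2164 to 3314 CPM in fem-3, and the 38 sperm genes to 1.69 to 17.6 CPM in glp-1 and 6566 to 13192 CPM in fem-3. The 12 oocyte and oogenic germline genes summed to 0.733 to 8.17 CPM in glp-1 and 251 to 527 CPM in fem-3. Since whole worms were sequenced, fewer cells of a type and less RNA per cell cannot be told apart.

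RP genes took 10.8 to 17.5% of the reads in the 8 h fertile libraries and 8.65 to 10.99% in the 24 h fertile libraries. In the sterile libraries they took 2.03 to 5.14%. In glp-1 auxin worms of 8, 24 and 48 h the share was 4.50 ± 0.58%, 3.22 ± 0.10% and 2.90 ± 0.32%, and in the mock worms 3.94 ± 0.20%, 2.61 ± 0.51% and 2.66 ± 0.35% (SD, n = 3, or 2 for auxin of 48 h). The shares of the 24 h and 48 h glp-1 groups lay below those of the 8 h groups. The fem-3 auxin worms had 4.38 ± 0.25%, 4.13 ± 0.11% and 4.65 ± 0.20%, and their mock controls 4.44 ± 0.10%, 4.66 ± 0.24% and 4.52 ± 0.14% (SD, n = 3 each). Yolk protein (vitellogenin) genes took 16.2, 11.5 and 8.35% of the fem-3 mock reads and 19.3, 18.1 and 15.8% of the glp-1 mock reads. Without these and ribosomal RNA the RP share was 5.47, 5.42 and 5.07% in fem-3 mock and 5.14, 3.64 and 3.34% in glp-1 mock. In auxin it was 5.37, 4.79 and 5.08% in fem-3 and 5.71, 4.07 and 3.49% in glp-1. Fertile and sterile worms also differed in temperature, genotype and table, so the difference of their shares was not tested.

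**Figure D1:**
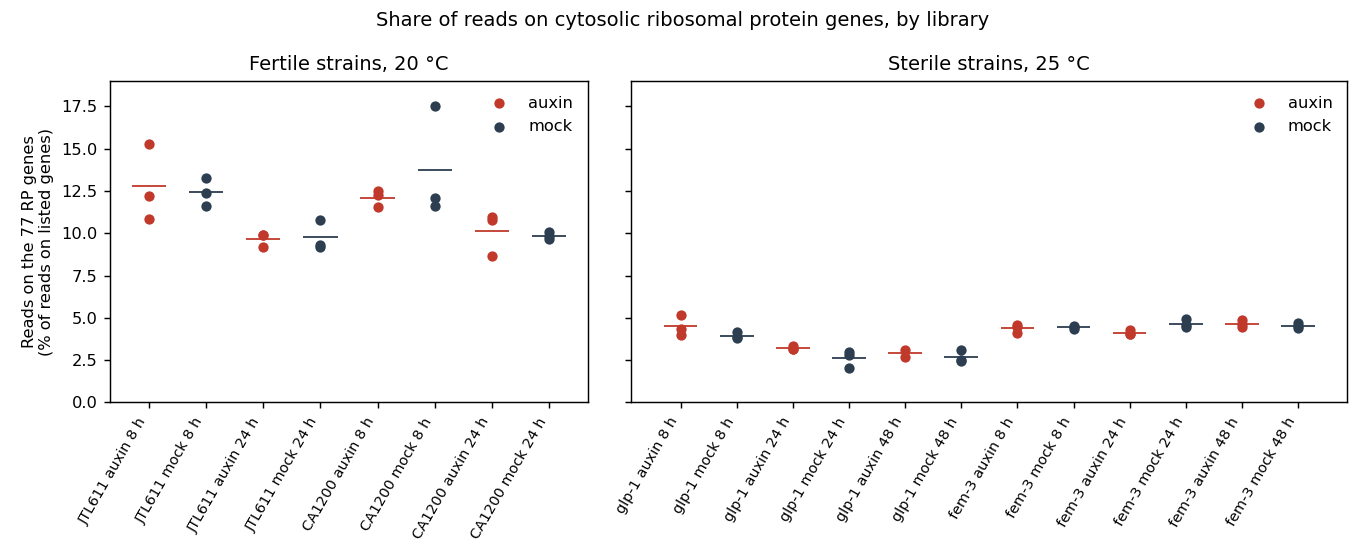
Percent of the reads on listed genes that fell on the 77 RP genes, by library (points) and group mean (lines), for fertile strains on the left and sterile strains on the right. The sterile libraries sit between 2.03 and 5.14% and the fertile ones between 8.65 and 17.5%; the library at 17.5% is CA1200 mock 8 h replicate 1.

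The first question was whether RP mRNAs followed the loss of HSF-1. No RP gene passed the test in any auxin comparison, in fertile or in sterile worms, on the deposited scale or after each library was centred on the median of its tested genes. In fertile adults, JTL611 on auxin was set against CA1200 on auxin. The median log2 difference of the 77 genes was 0.01 at 8 h (46 of 77 positive, against 50.2% of all genes) and -0.15 at 24 h (7 of 77, against 51.9%), beside medians of 0.00 and 0.01 over all genes tested. After centring the RP medians were 0.03 and -0.13. In limma, 0% of the 10739 genes tested at 8 h and 0% of the 10245 tested at 24 h passed, and no RP gene had an unadjusted p under 0.05, as 2.41 and 3.16% of all genes did. After centring 0.00931 and 0% of all genes passed, and again no RP gene. The same count of 0 came from precision weights on the recovered reads.

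Individual RP genes moved little between the fertile strains. rpl-3, which encodes a core protein near the peptidyl transferase centre, had 4842, 4894 and 4648 CPM in JTL611 auxin against 4995, 4938 and 4692 CPM in CA1200 auxin at 8 h. At 24 h it had 2991, 3896 and 4283 CPM in JTL611 auxin against 3521, 4469 and 4692 CPM in CA1200 auxin. The ranges of the groups overlapped at both hours, though at 24 h rpl-3 was lower in JTL611 in each of the 3 same-numbered pairs, which deviated together in this comparison. The log2 differences were -0.02 ± 0.12 (SE; 95% interval -0.25 to 0.20) and -0.19 ± 0.21 (-0.59 to 0.22), and with the replicate as a block the limma adjusted p of rpl-3 at 24 h was 0.56. The largest differences belonged to rpl-43 at 8 h, 0.20 (-0.25 to 0.66), and to rpl-7A at 24 h, -0.35 (-0.87 to 0.18), both large-subunit genes. Auxin against mock within JTL611 gave RP medians of 0.02 at 8 h and -0.04 at 24 h. In CA1200, which has no degron, auxin against mock gave -0.19 at 8 h and 0.07 at 24 h, and JTL611 mock against CA1200 mock gave -0.19 at 8 h and -0.02 at 24 h. Both 8 h values of -0.19 were measured against the CA1200 mock group, in which replicate 1 held the RP share of 17.5% against 12.1 and 11.6% in the others. With each library left out in turn, these medians ranged from -0.32 to -0.02 and from -0.32 to -0.01, and no RP gene passed. Of all genes 0% passed in these comparisons, other than 0.0186% at 8 h and 0.00976% at 24 h for auxin in CA1200 and, centred only, 0.00931% for JTL611 mock against CA1200 mock at 8 h.

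In glp-1 worms, RP genes tended to be higher on auxin at 8 and 24 h, though none passed the test. The median log2 difference was 0.22 at 8 h (74 of 77 positive, against 49.8% of all genes), 0.26 at 24 h (60 of 77, against 61.5%) and -0.01 at 48 h (38 of 77, against 53.9%). After centring the medians were 0.23, 0.18 and -0.03. None of the 77 passed limma at any hour, while 0.456, 0.687 and 5.07% of the 14269 genes tested did (0.47, 0.792 and 4.77% after centring). At an unadjusted p under 0.05 there were 21, 19 and 1 of the 77 RP genes at 8, 24 and 48 h, against 7.45, 16 and 16.7% of all genes. Without auxin replicate 2, the library poor in ribosomal RNA, the 8 h median was 0.05, and without auxin replicate 3 the count at 8 h was 3 with a median of 0.35. The count of 0 at 24 h became 6 without mock replicate 2 and 15 without mock replicate 3, both of which gave more weight to mock replicate 1, the library rich in ribosomal RNA. Without mock replicate 1 itself the count stayed at 0, with a median of 0.08. Shares of all genes with a library left out are not given, so these counts cannot be read as particular to the RP set.

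The largest single difference at 8 h was in rpl-11.1, whose product binds 5S ribosomal RNA together with that of rpl-5. It had 24.4, 24.9 and 20.6 CPM in glp-1 auxin against 11.8, 13.9 and 20.1 CPM in glp-1 mock. The auxin libraries were all above the mock libraries, with a log2 difference of 0.64 ± 0.20 (SE) and a limma adjusted p of 0.24. rpl-3 had 1044, 1346 and 1170 CPM in glp-1 auxin against 1089, 1062 and 1074 CPM in glp-1 mock at 8 h, and the groups overlapped. At 24 h rpl-17, a gene for a protein at the exit tunnel, was 0.65 ± 0.28 higher on the log2 scale (adjusted p = 0.25). At 48 h the largest difference was that of rpl-39, which encodes another small tunnel protein, at 0.44 ± 0.24 (adjusted p = 0.37).

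In fem-3 worms the RP median was 0.04 at 8 h, -0.13 at 24 h and 0.02 at 48 h, and 0.01, -0.16 and -0.01 after centring. No RP gene passed, while 0.224, 0.301 and 2.39% of all genes did (0.217, 0.322 and 2.48% after centring). At an unadjusted p under 0.05 there were 0 RP genes at 8 and 48 h too, against 4.03 and 11% of all genes. At 24 h 0 of 77 genes had a positive difference, against 52.9% of all genes, yet none passed limma, and none had an unadjusted p under 0.05 (6.57% of all genes did). Deviations of same-numbered libraries correlated weakly here (0.12 to 0.23), and with the replicate as a block the count was still 0. With the agent tag in place of the title, the 24 h median was 0.09, so its direction depended on which label was followed. rps-22, a 40S gene, had 85.9, 90.3 and 111 CPM in fem-3 auxin against 107, 125 and 135 CPM in fem-3 mock at 24 h. These groups overlapped, and the log2 difference was -0.35 (95% interval -0.82 to 0.12). The difference between the auxin effects of the 2 strains was tested directly, and 0 RP genes passed at 8, 24 or 48 h, with medians of 0.19, 0.40 and -0.02 (glp-1 effect minus fem-3 effect). At an unadjusted p under 0.05 these tests held 1, 20 and 0 RP genes, against 3.63, 8.73 and 8.83% of all genes. Of all genes 0, 0.035 and 0.413% passed, or 0, 0.042 and 0.442% after centring. With 1 library left out, the median of this strain difference ranged from 0.03 to 0.31 at 8 h and from 0.21 to 0.49 at 24 h. Over the other alternatives it ranged from 0.10 to 0.47 at 24 h.

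The second question was how RP mRNAs changed with time on the plates. In glp-1 worms nearly the whole set fell. In mock worms 62 of 77 were lower at 24 h than at 8 h, where 8.63% of all tested genes were lower, and 71 of 77 were lower at 48 h than at 8 h, where 13.5% were. The RP medians were -0.71 and -0.92 on the log2 scale, beside -0.08 and -0.01 over all genes. In auxin worms 59 of 77 were lower at 24 h (6.27% of all genes) and 74 of 77 at 48 h (14.7%), with medians of -0.72 and -1.19. After centring, 51 and 69 genes were lower in mock (6.46 and 11.6% of all genes) and 61 and 73 in auxin (5.88 and 13.5%), with medians of -0.60 and -0.83 in mock and -0.71 and -1.14 in auxin. The auxin time courses were compared after the mock ones had been seen.

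**Figure D2:**
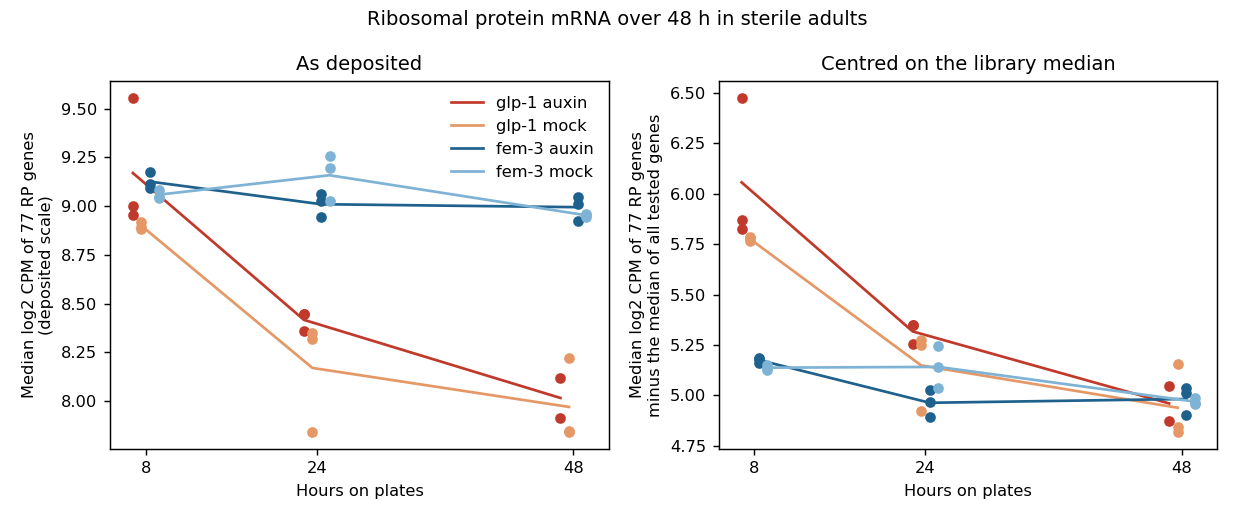
Median log2 CPM of the 77 RP genes in each sterile library (points) and group means (lines) against hours on plates, as deposited on the left and after subtracting the median of all tested genes of the library on the right; points are shifted sideways for clarity. In glp-1 the values drop between 8 and 48 h in both panels, while those of fem-3 stay within 8.92 and 9.25 on the deposited scale; on that scale glp-1 ends below fem-3, and after centring it starts above and ends beside it.

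Both subunits took part. At 48 h in mock glp-1 worms 42 of 46 rpl- genes and 29 of 31 rps- genes were lower, with medians of -0.92 and -0.94. rps-3, which encodes a protein at the mRNA entry of the small subunit, had 1202, 1159 and 1307 CPM at 8 h, 591, 831 and 901 CPM at 24 h and 697, 694 and 766 CPM at 48 h in mock. Every 24 h and 48 h library was below every 8 h library, and the log2 difference between 48 and 8 h was -0.77 ± 0.12 (SE; limma adjusted p = 1.4e-05). rpl-30, for a 60S protein, had 84.4, 104 and 81.5 CPM at 8 h, 25.3, 62.0 and 52.0 CPM at 24 h and 31.8, 35.3 and 30.2 CPM at 48 h. Its log2 difference was -1.46 ± 0.18 (adjusted p = 3.7e-07), and -1.01 ± 0.20 in auxin worms (adjusted p = 0.00031). rpl-3 fell less, to 723, 667 and 735 CPM at 48 h against 1089, 1062 and 1074 CPM at 8 h, a log2 difference of -0.60 ± 0.13 (adjusted p = 0.00076). rps-19, a 40S gene whose human counterpart is mutated in Diamond-Blackfan anaemia, had 236.4, 234.9 and 330.8 CPM at 48 h against 489, 475 and 510 CPM at 8 h.

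In mock glp-1 worms at 48 h 5 genes did not pass, namely rpl-7, rpl-7A, rpl-43, rps-2 and rps-29, whose log2 differences lay between -0.79 (rpl-43) and -0.43 (rps-2). In auxin worms rpl-7 (-0.40) and rps-29 (-0.71) did not pass. rpl-10, which encodes a protein that joins the 60S subunit late in its assembly, was near the edge in mock, with 600, 635 and 645 CPM at 8 h, 984, 558 and 499 CPM at 24 h and 405, 382 and 556 CPM at 48 h. Its log2 difference was -0.50 at 48 h (adjusted p = 0.029; 0.11 after centring). The 24 h value of 984 CPM came from replicate 1.

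The exception, rpl-24.2, was higher at 48 h, where 10.7% of all genes were in mock and 14.2% in auxin (13.5 and 16% after centring). It is the copy of rpl-24 that is related to RSL24D1, a factor of 60S assembly in other species, and not to the protein of the mature ribosome. It had 30.3, 32.6 and 37.3 CPM at 8 h, 22.4, 42.3 and 37.9 CPM at 24 h and 42.2, 51.4 and 55.2 CPM at 48 h in mock glp-1 worms. The 48 h libraries were above the 8 h libraries, with a log2 difference of 0.57 ± 0.17 (adjusted p = 0.017), and of 0.79 ± 0.20 in auxin worms (adjusted p = 0.0025). It also rose in fem-3, by 0.61 ± 0.17 in mock and 0.58 ± 0.17 in auxin (adjusted p = 0.012 and 0.014), and centring kept all 4 calls. Its partner rpl-24.1 fell with the rest in glp-1 mock, to 581, 540 and 811 CPM at 48 h against 1160, 1232 and 1209 CPM at 8 h (log2 difference -0.92 ± 0.14, adjusted p = 7.5e-06).

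In fem-3 worms the set changed little with time. No RP gene passed between 24 and 8 h in mock or in auxin, where 7.73 and 10.1% of all genes did (limma; 1 RP gene in each had an unadjusted p under 0.05, and precision weights called 2 in mock and 0 in auxin). At 48 h 2 RP genes passed in mock, rpl-24.2 upward and rpl-11.2 downward (-0.56 ± 0.14), of 18.4% over all genes. In auxin 4 passed, of 24.2% over all genes: rpl-24.2 upward and rpl-11.2 (-0.54), rps-19 (-0.36) and rps-23 (-0.32) downward. The RP medians at 48 h were -0.10 in mock and -0.11 in auxin, below those of all genes at 0.16 and 0.13. After centring the RP medians were -0.16 and -0.17, beside 0.09 and 0.07 over all genes. rps-3 had 1298, 1436 and 1414 CPM at 8 h, 1264, 1436 and 1583 CPM at 24 h and 1181, 1197 and 1270 CPM at 48 h in fem-3 mock. rpl-30 had 87.4, 92.4 and 83.7 CPM at 8 h and 89.5, 77.4 and 87.3 CPM at 48 h there, a log2 difference of -0.05 (95% interval -0.41 to 0.30).

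The difference between the strains in their change since 8 h was tested itself. In mock worms the change was more negative in glp-1 than in fem-3 for 48 RP genes at 24 h (3.22% of all genes) and 46 at 48 h (5.4%), and in auxin worms for 20 at 24 h (2.77%) and 58 at 48 h (6.99%). No RP gene differed in the other direction. After centring the counts were 30, 31, 9 and 51, beside 1.32, 3.32, 1.54 and 5.31% of all genes. rpl-30 differed by -1.41 ± 0.26 on the log2 scale in mock at 48 h (adjusted p = 0.00044), rpl-11.1 by -1.65 ± 0.28 (adjusted p = 0.00019) and rps-3 by -0.58 ± 0.17 (adjusted p = 0.027, and 0.091 after centring). rpl-24.2 differed by -0.05 ± 0.25. The 24 h counts were unsteady. With only the compared groups they were 7 in mock and 2 in auxin, and by the agent tag 5 and 40. With 1 library left out they ranged from 22 to 53 in mock, lowest without fem-3 mock 8 h replicate 1, and from 6 to 34 in auxin, lowest without glp-1 auxin 8 h replicate 2 or fem-3 auxin 8 h replicate 1 and highest without glp-1 auxin 8 h replicate 3. At 48 h they were 63 and 59 with only the compared groups, 41 and 56 by the tag, and 32 to 48 and 39 to 61 with 1 library left out. Shares of all genes under these last alternatives are not given. A change of calls over all genes therefore cannot be told from one of the RP set.

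How many genes passed depended on the libraries that shared in the estimate of the spread. When only the compared groups entered the fit, 2 RP genes of glp-1 mock passed at 24 h and 65 at 48 h, and 3 and 36 of glp-1 auxin, with the same medians. Shares of all genes under the alternatives of this paragraph are not given. A loss of calls over all genes therefore cannot be told from one of the RP set. With the libraries whose title and tag agreed, which removes a replicate from each glp-1 group and leaves 1 library in glp-1 auxin at 48 h and in every fem-3 group, 1 and 24 passed in mock and 3 and 36 in auxin, with medians of -0.79, -1.02, -0.87 and -1.37. By the agent tag the counts were 57 and 74 in mock and 61 and 75 in auxin. Without mock replicate 1 of 24 h, 54 genes were lower at 24 h with a median of -0.55. Without auxin replicate 2 of 8 h, 41 were lower at 24 h and 71 passed at 48 h, with medians of -0.53 and -1.0. Ribosomal RNA took on average 3.97, 10.8 and 4.69% of the glp-1 mock reads at 8, 24 and 48 h. With read totals without ribosomal RNA, the mock medians were -0.54 at 24 h and -0.63 at 48 h and 50 and 62 genes passed. The auxin medians were -0.49 and -0.74 with 48 and 66 genes. These totals also left out the authors' normalisation, so the change from the deposited medians is not that of ribosomal RNA alone. The size of the fall thus depended on the totals used. At 48 h the deposited medians were -0.92 in mock and -1.19 in auxin, against -0.63 and -0.74 with these totals. In glp-1 mock the RP share was 4.11% at 8 h and 2.79% at 48 h without ribosomal RNA, beside 3.94 and 2.66% with it.

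**Figure D3:**
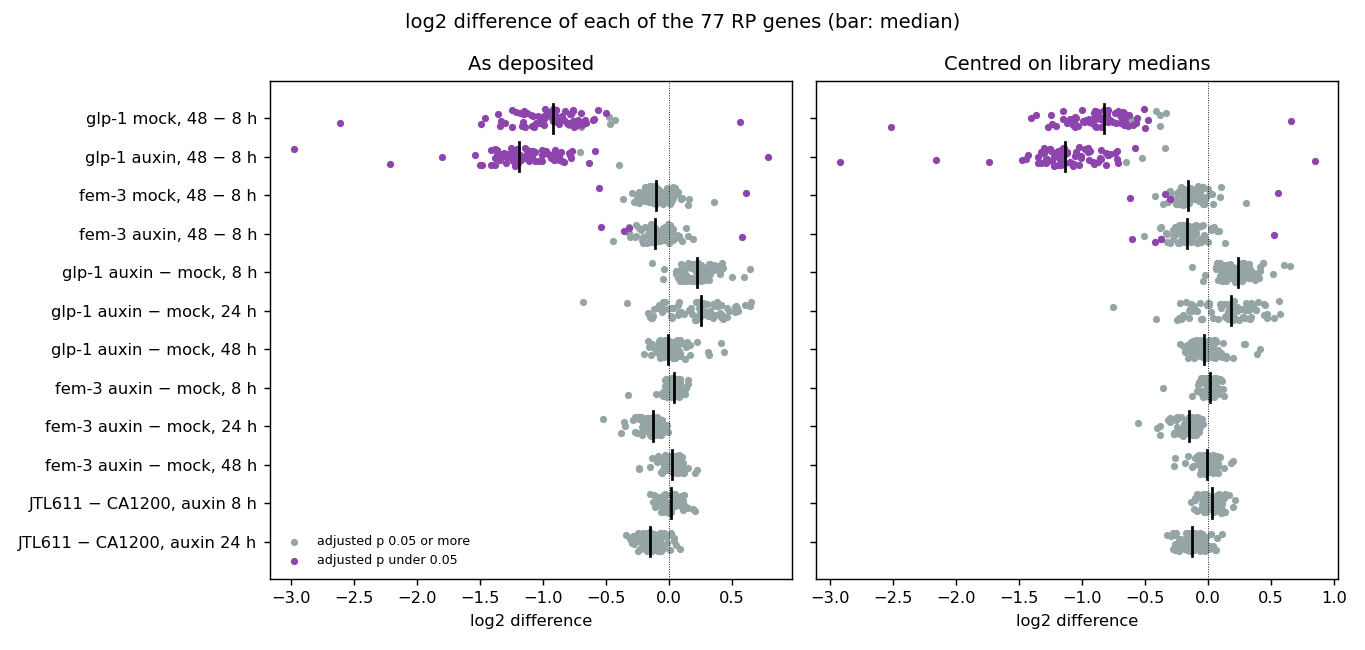
The log2 difference of each of the 77 RP genes (points), its median (bar) and the result of the limma test (colour) in 12 comparisons, as deposited on the left and centred on library medians on the right. In the 48 h against 8 h rows of glp-1 all genes but rpl-24.2 lie left of 0, with medians of -0.92 in mock and -1.19 in auxin as deposited. No point of the auxin against mock or JTL611 against CA1200 comparisons passed the test.

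Other parts of the translation machinery were read from lists drawn up by role or by symbol. At 48 h 13.5% of all genes were lower in mock glp-1 worms and 14.7% in auxin (11.6 and 13.5% after centring). Higher were 10.7 and 14.2% of all genes (13.5 and 16% after centring). The 6 further genes of the cytosolic ribosome followed the RP set: in mock glp-1 worms at 48 h the stalk genes rla-0 (-0.62), rla-1 (-0.99) and rla-2 (-0.76) and the ubiquitin fusion genes ubl-1 (-0.87) and ubq-2 (-0.69) were lower, and rack-1 was not called (-0.56, adjusted p = 0.063). In auxin worms all 6 were lower. After centring the counts were 5 and 6. Of the 70 mitochondrial RP genes 40 were lower at 48 h in mock and 33 in auxin, with medians of -0.78 and -0.72 (36 and 29 after centring). Of the 6 elongation factor genes 0 were lower and 1 higher in mock, eef-2 (0.42, adjusted p = 0.028), with a list median of -0.07. In auxin eef-2 was higher and eef-1B.1 and eef-1B.2 were lower, of which eef-1B.1 was not called after centring. Of the 20 genes of ribosome assembly and RNA polymerase I, 1 was higher and 0 lower in mock, with a median of 0.14 (3 higher after centring). In mock fem-3 worms 0 of 6 ribosome genes, 0 of 70 mitochondrial RP genes and 0 of 6 elongation factors passed at 48 h. Of all genes 18.4% passed there, counting both directions. Muscle markers fell in both strains over the same time (3 of 4 in glp-1 mock and 4 of 4 in fem-3 mock, and 2 and 4 after centring). They summed to 1669 to 7467 CPM over the glp-1 libraries and 438 to 2800 CPM over the fem-3 libraries. The 1 hypodermis marker listed, of 4, ranged from 150 to 6226 CPM in glp-1 and from 14.05 to 874 CPM in fem-3, and was lower at 48 h in both (-4.27 and -4.53 in mock). The 7 intestine markers summed to 84788 to 217991 CPM in glp-1, with 2 higher and 1 lower at 48 h in mock, and to 48081 to 146003 CPM in fem-3, with 0 higher and 3 lower. The part of tissue make-up in the RP values was not tested.

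The comparison of glp-1 with fem-3 showed how much of an RP difference rests on the scaling. On the deposited scale, 2 RP genes were higher and 4 lower in glp-1 mock at 8 h (34.1 and 39.9% of all genes), 0 higher and 73 lower at 24 h (33.8 and 45.7%), and 0 higher and 75 lower at 48 h (31.9 and 44.4%). The RP medians were -0.10, -0.99 and -0.93 at 8, 24 and 48 h, beside 0.02, -0.36 and -0.25 over all genes. After centring, 68 were higher and 2 lower at 8 h (52.1 and 29% of all genes), 13 higher and 6 lower at 24 h (49 and 32.4%), and 9 higher and 7 lower at 48 h (49.9 and 31.1%), with medians of 0.70, 0.01 and 0.03. The median tested gene of a library stood at 2.92 to 3.14 log2 CPM in glp-1 and at 3.90 to 4.05 in fem-3, and centring shifts every difference by about that gap. Over all genes the centred medians were 0.82, 0.64 and 0.70 at 8, 24 and 48 h. The RP median thus lay below that of all genes on both scales at each hour. Neither scale gives RP mRNA per animal or per cell. rps-3 illustrates the switch: at 48 h its log2 difference was -0.76 (adjusted p = 2.2e-06) as deposited and 0.19 (adjusted p = 0.11) after centring. The fall with time within glp-1, in contrast, had a negative RP median on both scales. Among the 20 genes of ribosome assembly and RNA polymerase I, 1 was higher and 18 lower in glp-1 at 8 h, with the same counts after centring.

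Both scalings agreed for 4 RP genes at 8 h, and these were the copies of RPL11 and RPL25, in which an autosomal and an X-linked gene share a name. rpl-11.1 (WBGene00004422, chromosome V, bases 3585312 to 3586064 on the minus strand in WBcel235) and rpl-25.2 (chromosome I) were lower in glp-1, and rpl-11.2 (WBGene00004423, X, 2241738 to 2242618, minus strand) and rpl-25.1 (WBGene00004438, X, 4715178 to 4715796, plus strand) were higher. rpl-11.1 had 11.8, 13.9 and 20.1 CPM in glp-1 mock against 514, 485 and 578 CPM in fem-3 mock at 8 h. At 48 h it had 4.46, 4.12 and 7.60 CPM in glp-1 mock against 614, 538 and 600 CPM in fem-3 mock. The strains did not come near each other, and the log2 differences were -5.13 ± 0.20 and -6.78 ± 0.20 (adjusted p = 2.5e-19 and 2.9e-22). Centred, they were -4.33 and -5.82. rpl-11.2 had 664, 664 and 708 CPM in glp-1 mock against 564, 482 and 503 CPM in fem-3 mock at 8 h, a log2 difference of 0.40 ± 0.14 (adjusted p = 0.012; 1.19 after centring). At 24 and 48 h it was 0.14 and 0.28 higher without passing on the deposited scale, and passed after centring.

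rpl-25.2 had 234, 259 and 257 CPM in glp-1 mock against 650, 720 and 635 CPM in fem-3 mock at 8 h (log2 difference -1.42 ± 0.18, and -0.62 centred). Its X-linked copy rpl-25.1 had 262, 286 and 242 CPM in glp-1 mock against 149, 148 and 89.3 CPM in fem-3 mock (1.07 ± 0.23, and 1.87 centred). A share within a pair is free of the scaling. rpl-11.1 made up 1.06 to 3.02% of the reads of its pair in the 17 glp-1 libraries and 47.7 to 67.0% in the 18 fem-3 libraries. In fertile worms it made up 83.2 to 89.5% at 8 h and 90.1 to 94.4% at 24 h over the 2 strains. rpl-25.2 made up 41.6 to 52.0% in glp-1 and 81.4 to 88.0% in fem-3, and 88.0 to 95.5% over all fertile libraries. The order was thus glp-1, fem-3 and fertile for both pairs, with no overlap for the RPL11 pair; for the RPL25 pair the highest fem-3 and the lowest fertile share were both 88.0%. The shares of auxin and mock worms overlapped at 8 h. The rpl-11.1 share had medians of 2.85% in glp-1 auxin and 2.05% in glp-1 mock. In fertile worms at 8 h the medians were 87.1% in JTL611 auxin, 86.8% in JTL611 mock, 86.8% in CA1200 auxin and 87.8% in CA1200 mock.

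**Figure D4:**
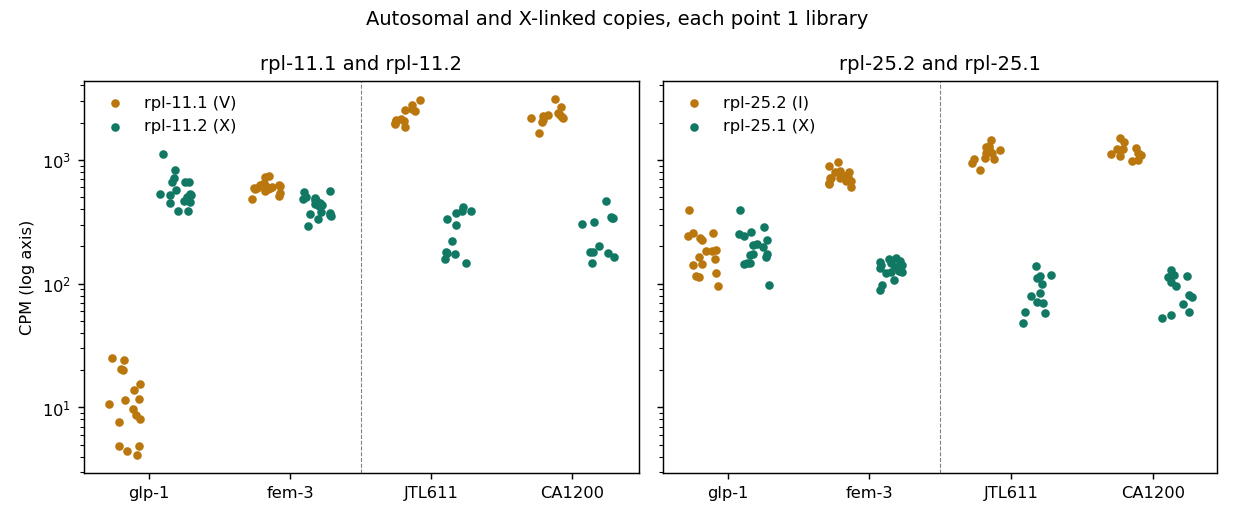
CPM on a log axis of the autosomal (brown) and X-linked (green) copies of RPL11 and RPL25, each point 1 library, by strain; the dashed line parts the separately scaled sterile and fertile tables. In glp-1 rpl-11.1 lies between 4.12 and 24.9 CPM, in fem-3 between 485 and 740 CPM, while rpl-11.2 stays between 291 and 1115 CPM in both.

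The X chromosome held 2 of the 77 RP genes (2.60%), against 13.4% of the genes listed for the sterile strains, and these were rpl-11.2 and rpl-25.1. Both have an autosomal copy. Chromosomes I, III and IV held 23, 18 and 17. In C. elegans the X chromosome is known to be poor in genes active in the germline, where it is largely silenced. rpl-42, the gene left out because the fertile tables do not list it, had 0 reads in every glp-1 library but 2, with 7 and 8 reads, and 38.3 to 93.1 CPM in fem-3. rpl-41.1 was the one member near the detection limit, with 3 reads or fewer in 3 sterile libraries and 0 in 2 of them; it has a near-identical copy, rpl-41.2, so the split of reads between them is uncertain. Its fitted falls with time in glp-1 (-2.61 in mock at 48 h) depend on the prior count and rest on 0, 1.48 and 0 CPM at 48 h against 1.60, 2.18 and 1.31 CPM at 8 h. Exon bases were shared with another gene by 14 members, 9 of them on the opposite strand and 5 on the same strand (rpl-23, rpl-5, rpl-7, rps-20 and rps-4), where reads can be hard to assign.

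RP levels per kilobase of exon were ordered alike in the fertile tables and differently in the sterile table. Across the 77 genes Spearman's rho of the median level was 0.98 between the 8 h and 24 h fertile tables and 0.52 between the 8 h fertile and the sterile table, as a description over genes that share libraries. In fertile worms at 8 h rpl-41.2 (5091 CPM per kilobase), rps-25 (5056) and rps-23 (4729) led. In sterile worms rpl-19 (2727), rpl-32 (2664) and rpl-24.1 (2279) led. rpl-24.2 was low in all tables, at 146, 109 and 82.3 CPM per kilobase at 8 h, at 24 h and in sterile worms. Gene length went with this. The 15 shortest genes, with 400 exon bases or fewer, had 0.609 to 1.41 times the median level per kilobase of the 19 genes with 700 or more in the 8 h fertile libraries, but 0.0879 to 0.25 times in the sterile libraries. The fertile and sterile libraries differed in temperature, genotype, library set and table, which cannot be told apart here.

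**Figure D5:**
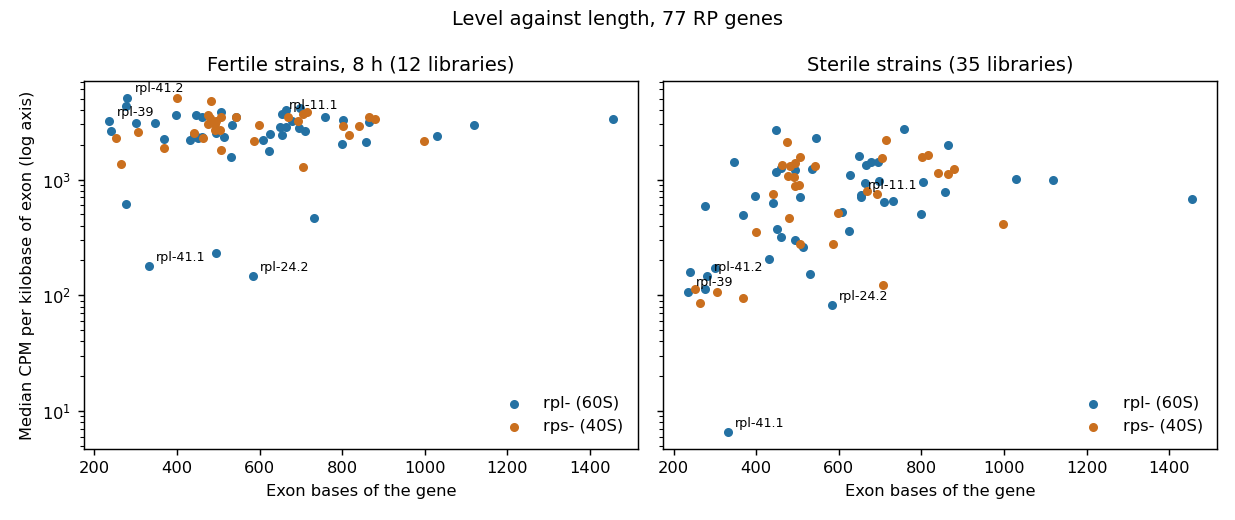
Median CPM per kilobase of exon (log axis) against exon bases for the 77 RP genes in the 12 fertile libraries of 8 h (left) and the 35 sterile libraries (right), with 60S genes in blue and 40S genes in orange. The short genes at the left edge match the rest in fertile worms, where rpl-41.2 stands at 5091, and lie below the longer genes in sterile worms.

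Length also went with the size of the fall in glp-1. At 48 h against 8 h in mock worms the median log2 difference was -1.08 for the 15 short genes, -0.92 for those in between and -0.76 for the 19 long ones, and in auxin worms -1.32, -1.21 and -0.94. All 3 length classes fell. At 24 h the mock medians were -0.69, -0.79 and -0.72, without such an order. The auxin medians at 24 h were -0.80, -0.71 and -0.71, with the short genes lowest. In fem-3 mock at 48 h they were -0.02, -0.11 and -0.09.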

How the data were processed

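The authors aligned reads with STAR, counted them per gene with featureCounts and normalised the counts with edgeR; the submitters' processing notes name the builds WBcel235 and ce11. The 3 deposited tables hold log2 CPM (log2 of scaled read counts, with a small prior). One deposited column, an indicator of the authors' own calls, was not used. Whole reads could be recovered for 100% of the values, within 0.05 reads. The log2 values were tested with limma 3.58.1 (R 4.3.3), with a mean for each group, all groups of a table in the fit and a trended prior; genes needed 1 CPM in at least 25% of libraries. Two-sided p-values were adjusted by the Benjamini-Hochberg method over all tested genes, and called at 0.05. Because the values are on a log scale, count models were not run, and precision weights from recovered reads served as an alternative. Fold changes of low genes are understated by the prior. Symbols, positions and exon lengths came from the Ensembl annotation of WBcel235. Replicate numbers were taken to pair libraries where every pair of deviations correlated above 0.1 (lowest pair 0.11 and 0.21 for the fertile strains on auxin at 8 and 24 h, and 0.12 for fem-3 on auxin and mock at 24 h, among others). The study calls the replicates of its CA1200 auxin series biological; for the other strains no such statement was found in the sources used here, so p-values measure the spread between these libraries. Named genes were those with the most positive and most negative differences in a comparison, numbered copies, the most and least abundant per kilobase, and calls against the main direction; others are examples of core proteins or were chosen after their values were seen. The gene set and lists were chosen with earlier results of these data known. Alternatives were centring, the pseudocount, the filter, totals without ribosomal RNA, the labels, the groups in the fit, the replicate block and leaving out each library.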

Additional observations from a re-analysis of the deposited data

Results flagged for a closer look

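The change in RP mRNA since 8 h differed between the germline-less and the sperm-making strain by a direct test of the difference in limma. In mock worms 48 RP genes differed at 24 h (3.22% of all genes) and 46 at 48 h (5.4%), each with the more negative change in glp-1. In auxin worms 20 differed at 24 h (2.77%) and 58 at 48 h (6.99%), in the same direction. Centred on library medians, the counts were 30, 31, 9 and 51. The median difference of the 77 genes was -0.90 and -0.83 on the log2 scale in mock and -0.67 and -1.07 in auxin, beside -0.22, -0.15, -0.10 and -0.09 over all genes. After centring the medians were -0.70, -0.67, -0.56 and -0.95. These comparisons were added after the time courses had been seen. With 1 library left out, the counts ranged from 22 to 53 and 32 to 48 in mock and from 6 to 34 and 39 to 61 in auxin, at 24 and 48 h. Shares of all genes with a library left out are not given.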

How the results depend on the processing

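Of 526 alternatives to 32 counts of called RP genes, 469 kept the direction and stayed within 1.5 times the count, 38 gave fewer, 15 more and 4 turned round. In 16 of the 19 comparisons with no call, every alternative also gave 0. Centring changed the count for glp-1 against fem-3 to 70 at 8 h, 19 at 24 h and 16 at 48 h, with the direction turned round, for fem-3 mock at 48 h to 4, and for the difference of time effects at 24 h to 30 in mock and 9 in auxin. Totals without ribosomal RNA, which also left out the authors' normalisation, gave 10 for glp-1 against fem-3 at 8 h. They gave 1 for fem-3 auxin at 48 h, in the other direction, and 4 for the auxin difference of time effects at 24 h. The agent tag gave 11 for glp-1 against fem-3 at 8 h and, for the 24 h differences of time effects, 5 in mock and 40 in auxin. Libraries with agreeing labels gave 2, 24 and 39 for glp-1 against fem-3 at 8, 24 and 48 h, and 1 and 24 for glp-1 mock at 24 and 48 h. They gave 3 and 36 for glp-1 auxin, 0 for fem-3 mock and 0 for fem-3 auxin at 48 h, 0 and 2 for the mock and 0 and 3 for the auxin differences of time effects. This setting leaves 1 library in every fem-3 group and in glp-1 auxin at 48 h, so these counts say little about stability. With only the compared groups, the counts were 20 for glp-1 against fem-3 at 8 h, 2 for glp-1 mock at 24 h, 3 and 36 for glp-1 auxin, 2 and 4 for fem-3 mock, 10 for fem-3 auxin at 48 h, and 7 in mock and 2 in auxin for the 24 h differences of time effects. Precision weights gave 2 for fem-3 mock at 24 h. A pseudocount of 1 CPM gave 32 for the auxin difference of time effects at 24 h. Shares of all genes under the alternatives of this section are not given here, so a change of calls over all genes cannot be told from one of the RP set. The cause of these changes was not tested.

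The replicate block moved 1 count beyond 1.5 times, the auxin difference of time effects at 24 h (34 against 20), a comparison without paired libraries. Comparisons in which replicate numbers did pair had 0 calls with the block and without it.

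Leaving out 1 library at a time gave 0 to 3 for auxin in glp-1 at 8 h, 0 to 15 at 24 h, 50 to 60 for glp-1 mock at 24 h, 69 to 73 at 48 h, 41 to 62 for glp-1 auxin at 24 h and 60 to 76 at 48 h. It gave 1 to 2 for fem-3 mock and 2 to 3 for fem-3 auxin at 48 h, and 6 to 7, 71 to 74 and 71 to 75 for glp-1 against fem-3. The differences of time effects gave 22 to 53 and 32 to 48 in mock, and 6 to 34 and 39 to 61 in auxin, at 24 and 48 h. The mock count at 24 h was 22 without fem-3 mock 8 h replicate 1, 31 without glp-1 mock 8 h replicate 2, and 25 and 24 without fem-3 mock 24 h replicates 2 and 3. The auxin count at 24 h was 11 and 8 without glp-1 auxin 24 h replicates 1 and 2, 6 and 9 without fem-3 auxin 8 h replicates 1 and 2, 6 and 34 without glp-1 auxin 8 h replicates 2 and 3, and 7 and 8 without fem-3 auxin 24 h replicates 2 and 3. Where a group kept 1 library, it was assumed to vary like the others. Depth limits rpl-41.1 in glp-1 only. For rpl-42, glp-1 libraries held 0 to 8 reads and fem-3 libraries 591 to 1493 reads.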
